A study of Mus musculus with 32 samples.

Results

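The proteasome genes described here are the mouse protein-coding genes whose symbols begin with Psma, Psmb, Psmc, Psmd, Psme, Psmf or Psmg and a number. Pseudogenes and the interferon-inducible catalytic subunits Psmb8, Psmb9 and Psmb10 were left out. The rule found 47 genes among the 45706 gene identifiers of the expression tables. By role they are 16 subunits of the 20S core (8 of the alpha ring and 8 of the beta ring), 17 of the 19S cap (6 ATPases and 11 other subunits), 5 activator genes, 1 inhibitor, 4 chaperones of core assembly and 3 of cap assembly. The remaining gene, Psmc3ip, carries a matching symbol but encodes a cofactor of meiotic recombination and is no part of the proteasome. It is counted because the symbol rule finds it, and the counts over all members below include it.

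The proteasome is the protease that breaks down proteins tagged with ubiquitin. Its barrel-shaped 20S core cuts proteins inside a chamber lined by the beta subunits, and the gate to that chamber is formed by the alpha subunits. The 19S cap binds and removes ubiquitin chains and threads the unfolded protein into the core with its ring of ATPases. Other activators open the gate without ubiquitin, and interferons are known to raise one of them, the Psme1 and Psme2 ring, together with an alternative set of catalytic subunits that favours peptides for antigen presentation. Blood stem cells are known for slow protein synthesis and for sensitivity to disturbed protein turnover.

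RNA was sequenced from haematopoietic stem and progenitor cells (HSPCs) of mouse bone marrow, sorted as lineage-negative cells bearing cKit and Sca1. All of the sorted cells descended from C57BL/6J wild-type donors carrying both CD45.1 and CD45.2, and 800000 such marrow cells had gone into each irradiated C57BL/6J (CD45.2) recipient. In the AF9_Experienced group (experienced below) they shared the host with 200000 CD45.1 marrow cells homozygous for an inducible human MLL-AF9 fusion and for rtTA, the activator that doxycycline switches on. In the naive group the 200000 partner cells had rtTA without the fusion. From 6 to 8 weeks after transplantation, leukaemia was induced by 5 weeks of doxycycline and left to regress for 4 weeks without it, and the labels do not say separately what the naive hosts received. Then PBS, the vehicle, or LPS, the bacterial lipopolysaccharide that Toll-like receptor 4 senses, was injected, and marrow was taken 24 h later. Each of the 4 groups held 4 replicate libraries. The labels used here give no age, sex or LPS dose, and leave unsaid whether each replicate is its own mouse. The p-values therefore reflect the scatter among these libraries alone. The measured cells are therefore normal cells, with the hosts and partner cells removed by the sort. Those of the experienced group had lived beside a leukaemia, and those of the naive group had not.

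Library totals ranged from 7718857 to 22264672 expected counts, and the proteasome genes held 0.318% to 0.386% of the counts in PBS libraries and 0.410% to 0.519% in LPS libraries. The 4 markers of the sort (Kit, Ly6a, Cd34 and Ptprc) were detected, with summed levels of 506 to 872 TPM (RSEM's level, scaled for gene length and library). In 5 libraries, expression of genes that are not members fell with the GC content of their transcripts relative to the mean of all libraries. Spearman's rho across 11113 genes was -0.13 in naive LPS replicate 1, -0.43 in naive LPS replicate 2, -0.46 in experienced PBS replicate 3, -0.22 in experienced PBS replicate 4 and -0.44 in experienced LPS replicate 4, and lay between 0.08 and 0.38 in the other 11. Experienced LPS replicate 4 and experienced PBS replicate 4 also had the highest mitochondrial shares, 7.30% and 5.94%, against 1.91% to 4.26% elsewhere. Values with these 5 libraries left out are given beside the counts and comparisons and for some single members. For the other members the counts by role in that fit show the calls.

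Promoters are shown first because the members moved together and because each printed window carries a short motif of a factor known for proteasome, interferon or general promoter control. A window of 300 bases, from 250 before to 50 after the start site, was matched for 39 of the 47 members in RefSeq's promoter sequences (GRCm38.p6), giving 42 windows. The Ets core CCGGAA, searched on both strands, lay in the windows of 21 of these 39 members, or 53.8%. Among the 10296 tested genes with a window the share was 31.4%, and among all 32851 windows it was 14.9%. The antioxidant response core TGACNNNGC lay in 15.4% of the 39 members against 17.0% of tested genes and 12.4% of all windows. CCAAT lay in 35.9%, 42.7% and 37.4%, the interferon-stimulated response element core in 12.8%, 3.88% and 3.44%, and the gamma-activated pattern TTCNNNGAA in 5.13%, 8.25% and 8.30%. A match describes letters in the window and is not a measured binding site.

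The 6 windows below run from 200 bases before the start site through 30 bases from it, on the strand of the gene, 5′ to 3′, with the matched motif in capitals. Psmd12 (chr11:107479328-107479557, plus strand), Psmd6 (chr14:14120916-14121145, minus strand) and Psmc5 (chr11:106255985-106256214, plus strand) are cap genes that rose after LPS in both naive and experienced cells, and their capitals mark the Ets core. Psma3 (chr12:70974423-70974652, plus strand) is the core gene that did so with the lowest p in naive cells, and its capitals mark CCAAT. Psme1 (chr14:55578294-55578523, plus strand) was called in naive cells and not in experienced cells, and its capitals mark the interferon-stimulated response element core. That core lay in 5 of the 39 members with a window: Psmb3, Psmd4, Psmd9, Psme1 and Psmg4. Of the 16 members with a window called higher in naive cells 1 carried it, and of the 16 called higher in experienced cells 0 did. Psmb5 (chr14:54617966-54618195, minus strand), a catalytic subunit that passed the test in neither (nor did Psmb6), is shown with its antioxidant response core.
Psmd12: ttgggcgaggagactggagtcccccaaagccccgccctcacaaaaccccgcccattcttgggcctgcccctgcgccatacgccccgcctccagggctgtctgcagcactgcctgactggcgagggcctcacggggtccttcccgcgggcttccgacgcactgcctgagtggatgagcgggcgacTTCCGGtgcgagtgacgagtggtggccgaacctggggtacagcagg
Psmd6: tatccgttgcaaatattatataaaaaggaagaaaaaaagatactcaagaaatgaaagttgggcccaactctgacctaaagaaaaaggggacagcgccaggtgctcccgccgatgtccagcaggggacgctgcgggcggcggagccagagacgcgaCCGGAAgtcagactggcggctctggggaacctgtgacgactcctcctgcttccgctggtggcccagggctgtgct
Psmc5: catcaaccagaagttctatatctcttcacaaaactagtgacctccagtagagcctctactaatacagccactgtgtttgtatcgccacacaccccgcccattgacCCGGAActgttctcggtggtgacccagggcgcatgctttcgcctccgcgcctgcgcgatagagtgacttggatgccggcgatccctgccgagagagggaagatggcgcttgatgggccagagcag
Psma3: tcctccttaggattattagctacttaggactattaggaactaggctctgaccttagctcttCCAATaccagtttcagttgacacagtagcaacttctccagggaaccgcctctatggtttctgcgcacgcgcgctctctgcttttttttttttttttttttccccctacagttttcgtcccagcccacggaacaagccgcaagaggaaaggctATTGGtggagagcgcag
Psme1: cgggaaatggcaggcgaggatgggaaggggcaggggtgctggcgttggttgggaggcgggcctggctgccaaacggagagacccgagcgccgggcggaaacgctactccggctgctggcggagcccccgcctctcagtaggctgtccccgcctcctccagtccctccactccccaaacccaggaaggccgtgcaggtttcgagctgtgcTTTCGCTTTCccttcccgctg
Psmb5: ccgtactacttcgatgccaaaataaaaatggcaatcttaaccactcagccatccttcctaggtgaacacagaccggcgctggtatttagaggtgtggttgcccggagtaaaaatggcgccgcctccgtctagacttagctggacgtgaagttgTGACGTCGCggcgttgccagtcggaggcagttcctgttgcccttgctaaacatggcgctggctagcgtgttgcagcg

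At rest, core genes stood above cap genes in level per transcript length. In naive PBS libraries the median core gene stood at 118 ± 9.89 TPM (SD, n = 4) and the median cap gene at 60.2 ± 6.83 TPM. Psme1, the alpha subunit of the interferon-inducible activator, had the highest level of all members, 363 ± 33.8 TPM in naive and 472 ± 155 TPM in experienced PBS libraries (SD, n = 4). Its partner Psme2 stood at 136 ± 18.8 and 115 ± 18.1 TPM. The nuclear activator Psme3 stood at 93.8 ± 11.3 and 132 ± 48.3 TPM, and Psme4, a large activator known from sperm and DNA repair, at 20.6 ± 5.59 TPM in naive PBS libraries.

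Within the core, Psma3 and Psma7 of the alpha ring led in naive PBS libraries with 182 ± 13.5 and 193 ± 5.16 TPM. The 3 catalytic subunits ran in the order Psmb6 (caspase-like, 162 ± 8.71 TPM), Psmb5 (chymotrypsin-like, 103 ± 12.8 TPM) and Psmb7 (trypsin-like, 84.1 ± 6.03 TPM). Over the 4 libraries the values of Psmb5 and Psmb7 overlapped, and those of Psmb6 lay above both. Their interferon-inducible counterparts, which are not members, stood at 189 to 237 TPM (Psmb8), 91.3 to 116 TPM (Psmb9) and 69.9 to 91.1 TPM (Psmb10) in the same libraries. The tissue-specific subunits were low or absent. Psma8, the alpha subunit known from testis, stood at 5.75 ± 2.00 TPM, and Psmb11, the catalytic subunit of thymic epithelium, was at 0 in all 8 PBS libraries and in 6 of the 8 LPS libraries. The other LPS libraries read 0.175 and 0.0508 CPM (counts relative to library size, scaled by edgeR's TMM factors). Of the assembly factors, Psmg4 and Psmg1 were at 56.0 ± 6.56 and 35.8 ± 3.17 TPM, and the cap chaperones Psmd5, Psmd9 and Psmd10 at 25.8 ± 6.33, 21.2 ± 6.99 and 12.5 ± 0.858 TPM.

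**Figure D1:**
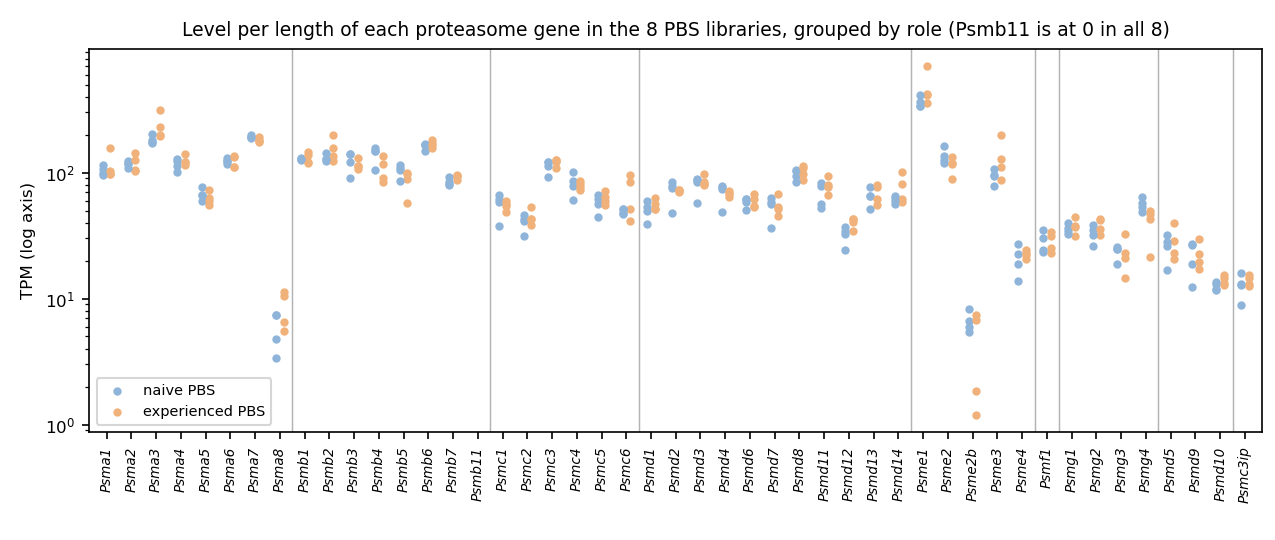
TPM, a level per transcript length, of each proteasome gene (horizontal axis, grouped by role with grey lines between groups) in the 4 naive and 4 experienced PBS libraries, 1 point per library, on a log axis. Psme1 lies above all other members, the core genes other than Psma8 and Psmb11 lie mostly above the cap genes, and Psma8 and Psme2b lie lowest of the genes drawn, since Psmb11 is at 0 in all 8.

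After LPS many proteasome genes rose in naive HSPCs. With all 16 libraries, calls came from every role except the inhibitor and the cap chaperones. Without the 5 libraries of negative GC trend, those roles held calls as well. Of 46 members that passed edgeR's expression filter (Psmb11 did not), 20 were called higher and 0 lower (Psmc3ip included), against 9.81% of all 15186 tested genes called higher and 11.9% called lower. A call is a Benjamini-Hochberg adjusted p under 0.05 over all tested genes in edgeR's quasi-likelihood test. The median log2 difference was 0.48 for the members (1.39-fold) and 0.02 for all genes, and 44 of 46 estimates were above 0. All 4 LPS libraries lay above all 4 PBS libraries for 18 of the 46, while 12.5% of all tested genes did so. In bulk RNA, a change in the makeup of the sorted cells and a change in RNA per cell cannot be told apart.

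Experienced HSPCs showed the same direction. There, 19 of 46 members were called higher and 0 lower (Psmc3ip included), against 4.52% and 8.26% of all tested genes. The median log2 difference was 0.60 for the members (1.51-fold) and -0.02 for all genes, with 44 of 46 estimates above 0. There was no overlap between the groups, LPS above PBS, for 17 of the 46 (6.45% of all tested genes). These 2 comparisons share no library, but both use a spread estimate per gene drawn from all 4 groups. The 2 comparisons had 11 called members in common, which is 55.0% of the naive calls and 57.9% of the experienced calls: Psma3, Psma6, Psmc2, Psmc5, Psmd1, Psmd3, Psmd6, Psmd7, Psmd12, Psmd14 and Psmc3ip. The matching overlap among all called genes is not given, so these shares do not show a trait particular to the members. A call in 1 of the 2 comparisons does not show that the responses differ, and the test of that difference is given further on.

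**Figure D2:**
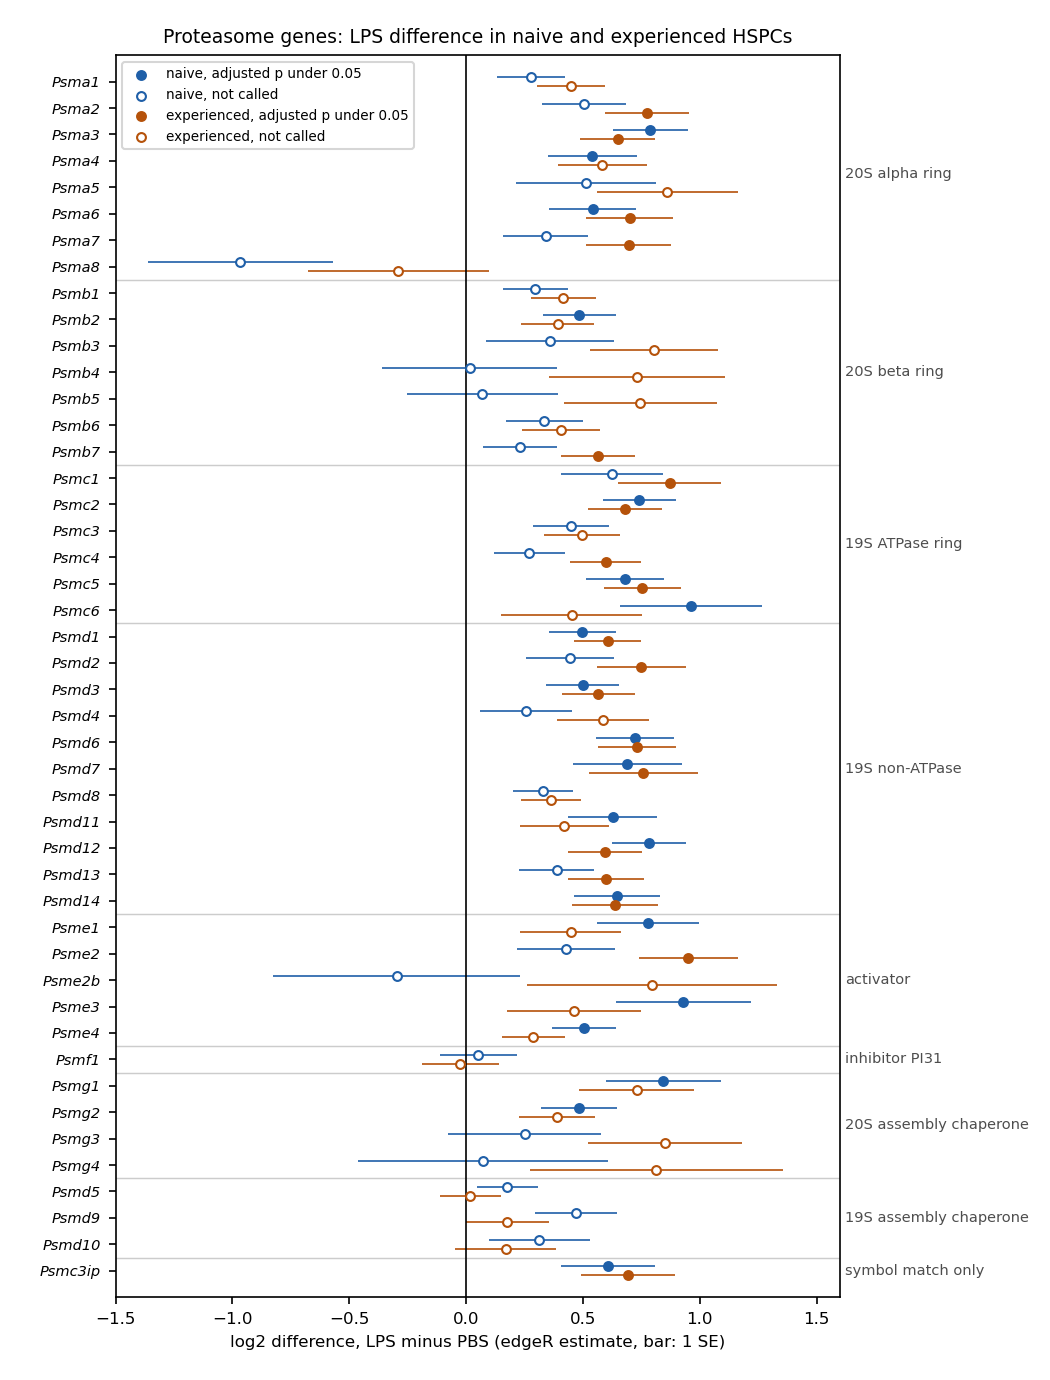
Log2 difference between LPS and PBS libraries for the 46 tested proteasome genes (rows, grouped by role) in naive and experienced HSPCs, with bars of 1 SE and filled points for adjusted p under 0.05. All points lie right of 0 except Psma8 in both, Psme2b in naive and Psmf1 in experienced cells, and the highest estimates reach 0.96 in naive and 0.95 in experienced cells.

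The number of calls moved with single libraries. In naive cells the count fell from 20 to 12, 6, 6 and 12 without PBS replicate 1, 2, 3 or 4, and to 10 and 12 without LPS replicate 2 or 3. In experienced cells it fell from 19 to 7 and 10 without PBS replicate 1 or 2 and to 8, 10 and 12 without LPS replicate 1, 2 or 3, and rose to 34 without LPS replicate 4. Calls in the lower direction numbered 0 in each of these fits. The share of all genes called is not given for them, so these changes cannot be told from changes in calls among all genes. Without the 5 libraries of negative GC trend, 42 members were called higher and 1 lower in naive cells, and 40 higher and 0 lower in experienced cells. Psmc3ip is among those called higher in each. All genes were then called higher in 19.3% and 19.4% and lower in 17.2% and 18.9% of cases. That fit, chosen after seeing the data, compares 4 naive PBS with 2 naive LPS and 2 experienced PBS with 3 experienced LPS libraries.

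**Figure D3:**
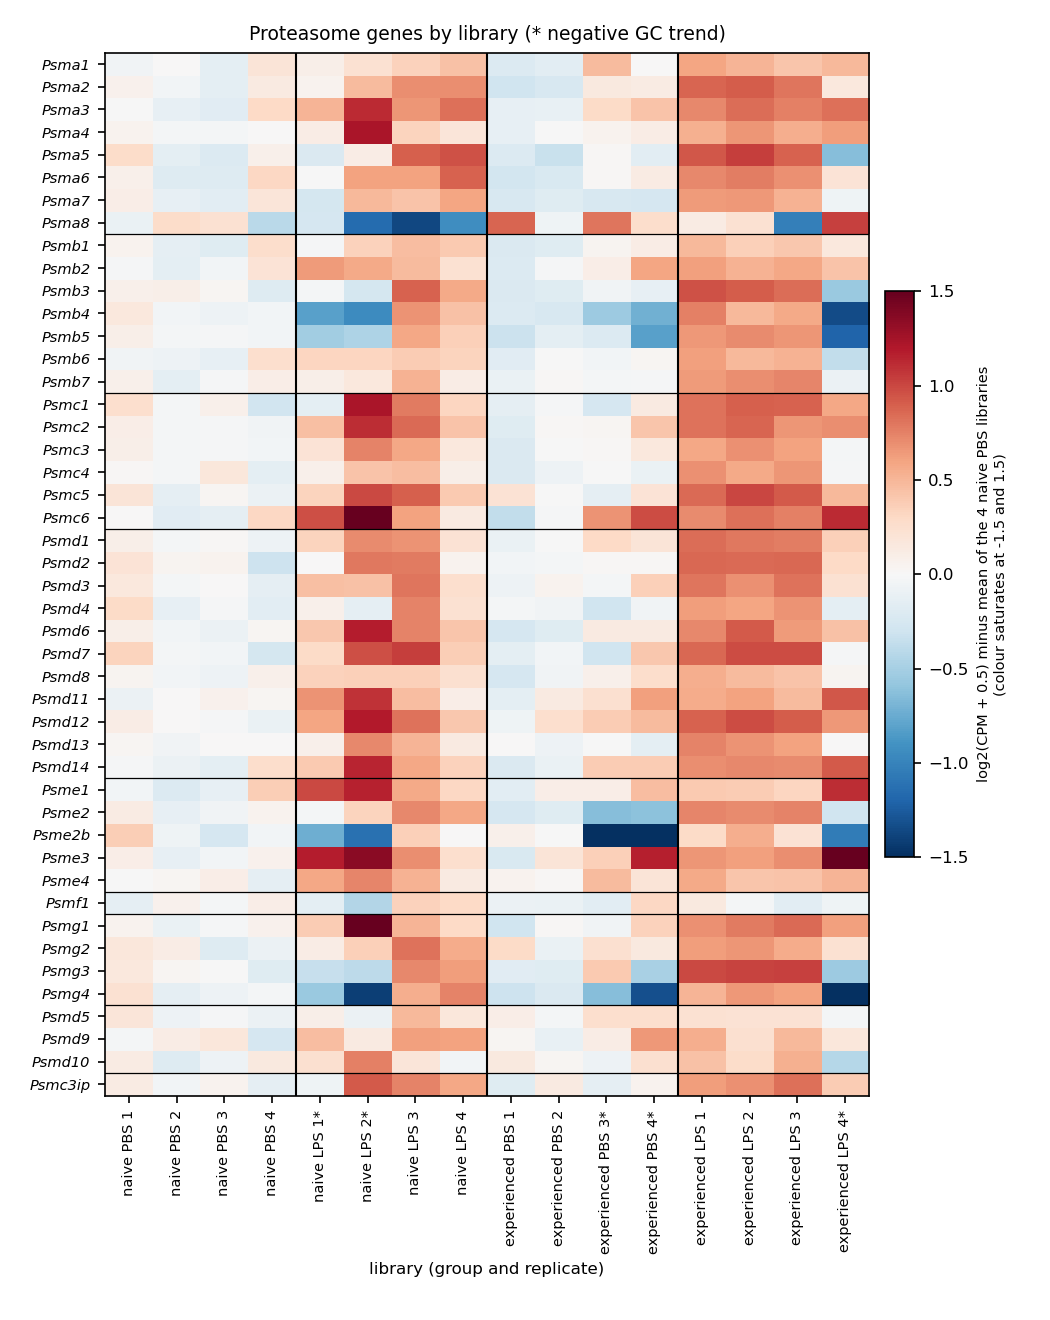
Log2(CPM + 0.5) of the 46 tested members (rows, grouped by role) in each of the 16 libraries (columns), relative to the mean of the naive PBS libraries, with colour saturating at 1.5 either way. LPS libraries are mostly red, and the libraries marked * (negative GC trend) show blue cells at Psmb4, Psmb5, Psme2b and Psmg4, down to 1.92 CPM for Psmg4 in experienced LPS replicate 4.

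The 19S cap, the role with the most tested genes, held more of the calls than any other role. In naive cells 10 of 17 cap genes were called higher, with a median log2 difference of 0.62, and in experienced cells 12 of 17, with a median of 0.60. All 17 estimates were above 0 in both, from 0.26 to 0.96 in naive and from 0.36 to 0.87 in experienced cells. Without the 5 libraries of negative GC trend, 16 of 17 were called higher in naive and 17 of 17 in experienced cells. The core was then much like the cap, with 14 of 15 genes called higher in each background. Cap medians were 0.49 in naive and 0.85 in experienced cells in that fit, and core medians 0.51 and 0.84. Summed over the cap genes, naive PBS libraries held 1479.9, 1336, 1373 and 1313 CPM and naive LPS libraries 1738, 2496, 2202 and 1607 CPM. The groups did not overlap, with LPS replicate 2 highest and replicate 4 lowest among the LPS libraries. In experienced cells the sums were 1255, 1366, 1459 and 1664 CPM after PBS and 2293, 2319, 2270.3 and 1828 CPM after LPS. Here too the groups were apart, and LPS replicate 4 lay nearest to the PBS libraries.

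**Figure D4:**
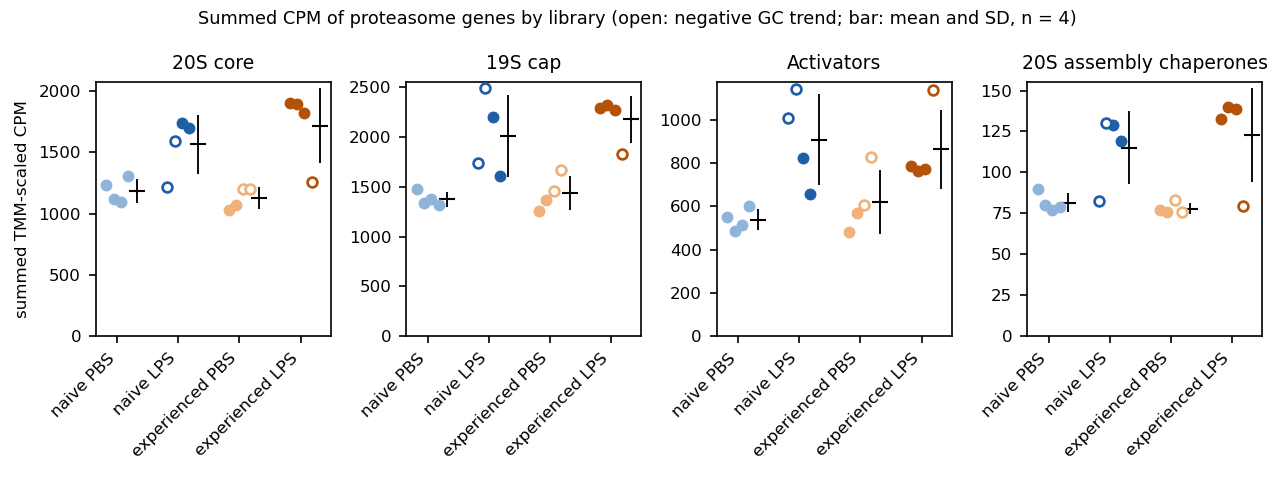
Summed CPM of the members of the 20S core, 19S cap, activators and 20S assembly chaperones in each library (1 point per library, open for the 5 libraries of negative GC trend, black bars for mean and SD with n = 4). The cap sums of LPS libraries (1607 to 2496 CPM) lie above nearly all PBS libraries (1255 to 1664 CPM) and above every PBS library of their own background, while the open points of naive LPS replicate 1 and experienced LPS replicate 4 lie at or near the PBS level in the panels of the core and the chaperones. The 3 open LPS points are the highest of the activator panel.

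Among the ATPases that drive unfolding, Psmc2 and Psmc5 were called in both comparisons. Psmc2 read 59.3, 54.0, 54.7 and 53.5 CPM in naive PBS and 76.2, 119.96, 99.998 and 74.7 CPM in naive LPS libraries, and 48.6, 56.3, 56.7 and 74.0 CPM and 98.0, 101, 87.9 and 89.8 CPM in the experienced ones. Each LPS group lay wholly above its PBS group. The log2 differences were 0.74 (SE 0.16) in naive and 0.68 (SE 0.16) in experienced cells, with edgeR adjusted p = 0.0038 and 0.0097. Psmc5 read 62.4, 49.6, 55.6 and 51.0 CPM in naive PBS, 68.5, 109, 102 and 71.5 CPM in naive LPS, 63.4, 54.3, 49.3 and 62.9 CPM in experienced PBS and 98.4, 109.6, 103 and 76.4 CPM in experienced LPS libraries. It too was higher in all 4 LPS libraries of each background, by 0.68 (SE 0.17) and 0.75 (SE 0.17) on the log2 scale (edgeR adjusted p = 0.0087 and 0.0073). Psmc3 had estimates of 0.45 and 0.50 and passed in neither with all 16 libraries. It was called higher in both backgrounds without the 5 libraries of negative GC trend.

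The ATPases Psmc1 and Psmc4 passed the test in experienced cells. Psmc1 read 55.9, 60.9, 51.5 and 67.7 CPM in experienced PBS and 109, 115, 115 and 92.1 CPM in experienced LPS libraries, which were apart, and the difference was 0.87 (SE 0.22) with edgeR adjusted p = 0.016. In naive cells it read 73.3, 60.4, 64.8 and 50.3 CPM after PBS and 55.8, 144, 106 and 77.4 CPM after LPS, overlapping at LPS replicate 1, for an estimate of 0.62 (SE 0.22). Psmc4 read 65.3, 72.2, 75.7 and 70.7 CPM after PBS and 122, 112, 119.9 and 74.7 CPM after LPS in experienced cells and 76.5, 74.0, 85.1 and 68.6 CPM after PBS and 79.9, 102, 105 and 80.3 CPM after LPS in naive cells. Experienced LPS replicate 4 and naive LPS replicates 1 and 4 fell within the PBS ranges. Its estimates were 0.60 (SE 0.15), called with edgeR adjusted p = 0.016, and 0.27 (SE 0.15). With the 5 libraries left out both genes were called in both backgrounds, Psmc1 at 0.60 and 0.97 and Psmc4 at 0.32 and 0.80, naive first.

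Psmc6 was called in naive cells, at 0.96 (SE 0.30), and varied with the libraries of negative GC trend. It read 57.6, 50.7, 52.0 and 71.0 CPM in naive PBS and 112, 189, 87.5 and 62.9 CPM in naive LPS libraries, and 44.1, 56.8, 92.0 and 113 CPM in experienced PBS and 93.7, 102, 96.9 and 125 CPM in experienced LPS libraries. The highest value of every group other than naive PBS belonged to one of those libraries, and LPS and PBS overlapped in both backgrounds. Without the 5 libraries its log2 difference was 0.42 (SE 0.16) in naive cells, with edgeR adjusted p = 0.057, and 0.97 (SE 0.17) in experienced cells, with adjusted p = 0.00089.

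Of the 11 other cap subunits, 7 were called in naive and 8 in experienced cells. Psmd12, a scaffold of the lid, read 48.7, 45.3, 44.7 and 42.1 CPM in naive PBS and 68.1, 103, 80.0 and 60.1 CPM in naive LPS libraries. In experienced cells it read 43.2, 53.7, 58.7 and 62.9 CPM after PBS and 83.6, 89.6, 85.4 and 70.9 CPM after LPS. No LPS library fell within the range of its PBS group. The log2 differences were 0.78 (SE 0.16) and 0.59 (SE 0.16), with edgeR adjusted p = 0.003 and 0.022. Psmd6, a lid neighbour, read 57.0, 52.2, 50.5 and 54.6 CPM after PBS and 71.2, 122, 90.2 and 71.6 CPM after LPS in naive libraries, and 44.8, 46.9, 58.6 and 58.9 CPM after PBS and 88.6, 102, 83.8 and 72.9 CPM after LPS in experienced ones. It was likewise apart in both backgrounds, by 0.72 (SE 0.17) and 0.73 (SE 0.17) on the log2 scale (edgeR adjusted p = 0.0065 and 0.0093).

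Psmd14, the cap enzyme that cuts ubiquitin chains off the substrate, read 64.9, 61.9, 59.5 and 79.2 CPM in naive PBS and 86.7, 147, 98.8 and 84.0 CPM in naive LPS libraries. In experienced cells it read 56.8, 61.3, 86.0 and 85.8 CPM after PBS and 107, 109, 108 and 126 CPM after LPS. The lowest LPS library stood above the highest PBS library in each background, and the log2 differences were 0.65 (SE 0.18) and 0.64 (SE 0.18) (edgeR adjusted p = 0.02 and 0.031). Its partner Psmd7 was called at 0.69 and 0.76. Psmd4, the cap's ubiquitin receptor, passed in neither, at 0.26 (SE 0.20) and 0.59 (SE 0.20). Psmd8 passed in neither as well, at 0.33 and 0.36, although its LPS libraries lay above its PBS libraries in naive cells. Without the 5 libraries of negative GC trend all 11 cap subunits other than the ATPases were called higher in both backgrounds, Psmd4 and Psmd8 among them.

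Psmd1 and Psmd2 are the large scaffolds of the cap's base. Psmd1 read 123, 113, 117 and 109.8 CPM in naive PBS and 146, 189, 184 and 134 CPM in naive LPS libraries, and 108, 115, 142 and 132 CPM after PBS and 207, 201, 198 and 149 CPM after LPS in experienced libraries. It was apart in both backgrounds, at 0.50 (SE 0.14) and 0.61 (SE 0.14) (edgeR adjusted p = 0.022 and 0.012). Psmd2 read 171, 153, 154 and 119.6 CPM after PBS and 149, 257, 254 and 154 CPM after LPS in naive cells and 143, 145, 149 and 150.3 CPM after PBS and 269.5, 266, 269.6 and 183 CPM after LPS in experienced cells. The experienced groups were apart and the naive groups overlapped at LPS replicates 1 and 4. Its estimates were 0.45 (SE 0.19), not called, and 0.75 (SE 0.19), called with edgeR adjusted p = 0.016, and 0.48 and 0.91 without the 5 libraries, both called.

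In the 20S core, 4 of 15 tested genes were called higher in naive cells and 5 of 15 in experienced cells, with median log2 differences of 0.34 and 0.65. The alpha ring held most of these, 3 and 4 of 8, and the beta ring 1 and 1 of 7. Summed core expression was 1232, 1117, 1096 and 1306 CPM in naive PBS and 1221, 1597, 1741 and 1703 CPM in naive LPS libraries. It was 1032, 1072, 1205 and 1199 CPM in experienced PBS and 1905, 1893, 1823 and 1259 CPM in experienced LPS libraries. Naive LPS replicate 1 lay within the PBS range, and experienced LPS replicate 4 lay just above it, far below its 3 companions. Without the 5 libraries of negative GC trend 14 of 15 core genes were called higher in each background, with medians of 0.51 in naive and 0.84 in experienced cells, and in naive cells Psma8 was called lower.

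Psma3, a subunit of the alpha ring, read 113, 104, 101 and 139 CPM in naive PBS and 161, 247, 180.0 and 201 CPM in naive LPS libraries. Experienced libraries read 104, 105, 138 and 152 CPM after PBS and 187, 203, 192 and 202 CPM after LPS. LPS values were above all PBS values of the same background. The log2 differences were 0.79 (SE 0.16) and 0.65 (SE 0.16), with edgeR adjusted p = 0.003 and 0.014. Psma2 had 79.9, 73.9, 68.8 and 83.6 CPM in naive PBS, 78.9, 106, 124 and 124 CPM in naive LPS, 61.8, 64.5, 84.6 and 83.4 CPM in experienced PBS and 139.9, 144, 133 and 85.5 CPM in experienced LPS libraries. Naive LPS replicate 1 lay inside the PBS range, whereas the experienced groups were apart by a narrow margin at LPS replicate 4. Its log2 differences were 0.50 (SE 0.18), not called, and 0.78 (SE 0.18), called with edgeR adjusted p = 0.01. They were 0.73 and 1.16 without the 5 libraries, both called. Psma6 was called in both (0.54 and 0.70), Psma4 in naive cells (0.54) and Psma7 in experienced cells (0.70). In naive cells LPS replicate 2 of Psma4 stood at 214 CPM against 98.4 to 115 CPM in the other 3, and the estimate without the 5 libraries was 0.29 (SE 0.09), still called.

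The catalytic beta subunits varied between libraries. Psmb5, the chymotrypsin-like subunit, read 64.5, 59.7, 60.0 and 58.8 CPM in naive PBS and 42.0, 44.0, 90.8 and 77.9 CPM in naive LPS libraries, and 48.3, 54.6, 52.4 and 34.3 CPM after PBS and 95.4, 99.2, 96.8 and 26.1 CPM after LPS in experienced libraries. The low LPS values are those of naive replicates 1 and 2 and experienced replicate 4, all libraries of negative GC trend, and the groups overlapped in both backgrounds. The log2 differences were 0.07 (SE 0.32) and 0.75 (SE 0.33), not called. When the 5 libraries were left out they were 0.51 (SE 0.09) and 0.93 (SE 0.10), with edgeR adjusted p = 0.00083 and 2.4e-05. The share of the library trend in either value was not tested.

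Psmb6, the caspase-like subunit, read 81.2, 80.1, 77.8 and 101 CPM in naive PBS and 106, 106, 110.3 and 107 CPM in naive LPS libraries, and 75.1, 84.3, 82.0 and 86.5 CPM after PBS and 129, 118, 121 and 65.2 CPM after LPS in experienced libraries. Naive groups were apart while experienced LPS replicate 4 lay below all of its PBS libraries, and neither difference was called, at 0.34 (SE 0.17) and 0.41 (SE 0.17). Psmb7, the trypsin-like subunit, read 68.9, 59.2, 64.6 and 70.0 CPM after PBS and 69.6, 73.0, 94.5 and 70.8 CPM after LPS in naive cells and 61.1, 66.4, 64.3 and 64.9 CPM after PBS and 102, 106, 109 and 61.5 CPM after LPS in experienced cells. The experienced groups overlapped only through LPS replicate 4. It was called in experienced cells at 0.56 (SE 0.16), with edgeR adjusted p = 0.028, and had an estimate of 0.23 (SE 0.16) in naive cells. Both subunits were called in both backgrounds when the 5 libraries were left out, Psmb6 at 0.38 and 0.64 and Psmb7 at 0.37 and 0.75. Of the structural beta subunits, Psmb2 was called in naive cells (0.48), while Psmb1, Psmb3 and Psmb4 passed in neither, with estimates of 0.30, 0.36 and 0.01 in naive and 0.42, 0.80 and 0.73 in experienced cells. With the 5 libraries left out all 7 tested beta subunits were called higher in both backgrounds.

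**Figure D5:**
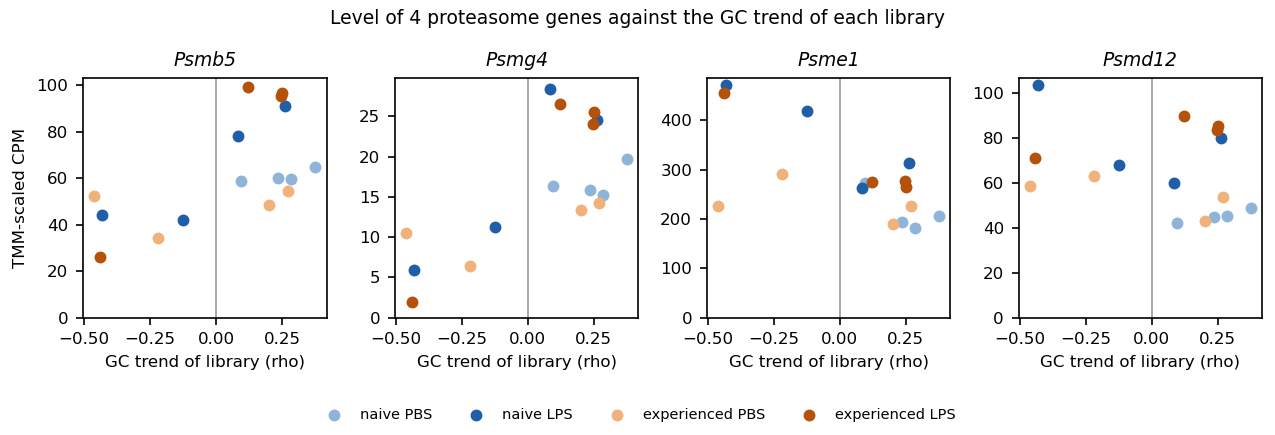
CPM of Psmb5, Psmg4, Psme1 and Psmd12 in each library (points coloured by group) against the library's GC trend, the Spearman rho between deviation from the all-library mean and transcript GC content over 11113 genes that are not members. In each library left of 0 Psmg4 lies below the libraries of its group right of 0 (down to 1.92 CPM). Psmb5 does so in 4 of the 5 (down to 26.1 CPM), Psme1 stands highest in its group there for LPS (up to 471 CPM), and Psmd12 in LPS libraries lies above the PBS libraries of its background on both sides.

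Psma8 had its lowest values after LPS in naive cells, although it passed no test with all 16 libraries. Psma8 replaces an alpha subunit in the testis. It read 6.45, 8.56, 8.21 and 5.15 CPM in naive PBS, 5.76, 2.84, 2.40 and 3.42 CPM in naive LPS, 13.1, 6.66, 12.5 and 8.46 CPM in experienced PBS and 7.62, 8.25, 3.16 and 14.7 CPM in experienced LPS libraries. Naive LPS replicate 1 overlapped the PBS range, and the experienced LPS values spread from 3.16 to 14.7 CPM. The log2 differences were -0.97 (SE 0.40) and -0.29 (SE 0.39), with edgeR adjusted p = 0.09 and 0.68. Its level, 5.81 TPM over all libraries, was among the lowest of the members.

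Of 5 tested activator genes, Psme1, Psme3 and Psme4 rose in naive cells and Psme2 in experienced cells. Without the 5 libraries of negative GC trend 4 and 3 of 5 were called. Psme1 read 206, 182, 194 and 273 CPM in naive PBS and 420.2, 471, 314 and 263 CPM in naive LPS libraries, and 189, 226, 226 and 291 CPM after PBS and 277, 274, 265 and 455 CPM after LPS in experienced libraries. Naive LPS replicate 4 lay within its PBS range, as did 3 of the 4 experienced LPS libraries. The differences were 0.78 (SE 0.22) with edgeR adjusted p = 0.019 and 0.45 (SE 0.22) with adjusted p = 0.19. Without the 5 libraries they were 0.46 (SE 0.15) and 0.41 (SE 0.16), the first still called.

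Its ring partner Psme2 read 66.8, 56.1, 58.7 and 63.5 CPM in naive PBS and 59.9, 77.3, 101 and 91.7 CPM in naive LPS libraries, and 51.5, 53.9, 38.9 and 39.7 CPM after PBS and 102, 100.5, 103 and 49.8 CPM after LPS in experienced libraries. In naive cells LPS replicate 1 lay inside the PBS range, and in experienced cells LPS replicate 4 did, with the other 3 LPS libraries nearly level at 100.5 to 103 CPM. The differences were 0.43 (SE 0.21) with edgeR adjusted p = 0.16 and 0.95 (SE 0.21) with adjusted p = 0.0081. Both were called when the 5 libraries were left out, at 0.68 (SE 0.09) and 0.97 (SE 0.10). Its near-identical copy Psme2b stood at 0.651 to 5.54 CPM, with estimates of -0.30 (SE 0.53) and 0.80 (SE 0.53), and is uncertain because reads may be divided between the copies. With the counts of both summed, the number of called members was 20 and 19 as before.

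Psme3 forms the nuclear activator ring. It read 196, 168, 177 and 191 CPM in naive PBS and 414, 468, 295 and 217 CPM in naive LPS libraries, and 156, 209, 234 and 411 CPM after PBS and 289, 280.0, 297 and 524 CPM after LPS in experienced libraries. Naive LPS libraries were all above naive PBS, while experienced PBS replicate 4 exceeded 3 of the experienced LPS libraries. The differences were 0.93 (SE 0.29) (edgeR adjusted p = 0.031) and 0.46 (SE 0.29) (adjusted p = 0.32), and without the 5 libraries 0.52 (SE 0.14) and 0.68 (SE 0.15), both called. Psme4 read 76.7, 78.3, 82.3 and 69.9 CPM after PBS and 115, 127, 110.3 and 84.0 CPM after LPS in naive libraries. It was apart in naive cells at 0.50 (SE 0.14), with edgeR adjusted p = 0.015, and had an estimate of 0.29 (SE 0.14) in experienced cells, where PBS replicate 3 overlapped the LPS range. Without the 5 libraries Psme4 was called higher in both backgrounds.

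With all 16 libraries Psmf1, the inhibitor also known as PI31, had estimates near 0. It read 44.2, 50.8, 47.7 and 52.1 CPM in naive PBS, 44.0, 35.6, 62.0 and 60.1 CPM in naive LPS, 45.8, 45.4, 43.4 and 60.3 CPM in experienced PBS and 53.9, 47.7, 43.5 and 46.3 CPM in experienced LPS libraries. Naive LPS libraries fell on both sides of the PBS range, with replicates 1 and 2 below it, and experienced LPS libraries lay within it. The log2 differences were 0.05 and -0.02, with 95% intervals of -0.29 to 0.40 and -0.37 to 0.32. Without the 5 libraries of negative GC trend they were 0.36 in naive cells, called higher, and 0.10 in experienced cells, not called.

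Of the 4 chaperones that assemble the core, Psmg1 and Psmg2, which act as a pair, were called higher in naive cells. None was called in experienced cells with all 16 libraries. Psmg1 read 26.1, 23.4, 24.9 and 26.2 CPM in naive PBS and 33.0, 81.3, 36.0 and 31.1 CPM in naive LPS libraries, and 20.3, 25.5, 24.1 and 32.0 CPM after PBS and 40.6, 43.6, 45.5 and 38.9 CPM after LPS in experienced libraries. The groups were apart in both, with naive LPS replicate 2 far above its companions. The differences were 0.84 (SE 0.25) (edgeR adjusted p = 0.023) and 0.73 (SE 0.25) (adjusted p = 0.06), and without the 5 libraries 0.45 (SE 0.12) and 0.93 (SE 0.13). Psmg2 read 27.3, 26.2, 21.1 and 22.8 CPM after PBS and 26.2, 31.2, 42.9 and 35.9 CPM after LPS in naive libraries, overlapping at LPS replicate 1, for a difference of 0.48 (SE 0.16) (edgeR adjusted p = 0.043). In experienced cells its estimate was 0.39 (SE 0.16). Without the 5 libraries Psmg1 and Psmg2 were both called higher in both backgrounds.

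The chaperones Psmg3 and Psmg4 varied widely between libraries. Psmg3 read 16.9, 15.5, 15.1 and 13.2 CPM after PBS and 11.8, 11.4, 25.2 and 23.7 CPM after LPS in naive libraries and 13.4, 13.3, 19.9 and 10.7 CPM after PBS and 30.5, 31.1, 31.3 and 10.2 CPM after LPS in experienced ones. Psmg4 read 19.7, 15.2, 15.8 and 16.4 CPM after PBS and 11.2, 5.94, 24.6 and 28.4 CPM after LPS in naive libraries and 13.4, 14.3, 10.5 and 6.42 CPM after PBS and 24.1, 26.6, 25.6 and 1.92 CPM after LPS in experienced ones. Naive LPS replicates 1 and 2 and experienced LPS replicate 4 were low for both genes, below all PBS libraries of their background. The SD of the log2 residuals of Psmg4 was 1.03, the highest of the 46 members. Estimates were 0.25 (SE 0.33) and 0.85 (SE 0.33) for Psmg3 and 0.07 (SE 0.54) and 0.81 (SE 0.54) for Psmg4, none called. All 4 values were called when the 5 libraries were left out, at 0.72 (SE 0.12) and 1.23 (SE 0.13) for Psmg3 and 0.69 (SE 0.13) and 0.89 (SE 0.15) for Psmg4. With all 16 libraries the cap chaperones Psmd5, Psmd9 and Psmd10 passed in neither background. Their estimates were 0.18, 0.47 and 0.31 in naive and 0.02, 0.18 and 0.17 in experienced cells. Without the 5 libraries Psmd5 and Psmd9 were called higher in naive cells and Psmd9 in experienced cells. The medians of these 3 genes were then 0.37 and 0.36.

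The experienced and naive groups were compared next, which asks whether past exposure to leukaemia left the proteasome genes at another level. With all 16 libraries no member was called after PBS, after LPS or averaged over both, and 0% of all tested genes was called in each of these comparisons. The interaction, the LPS difference of experienced minus that of naive cells, also gave 0 calls among 46 members and 0% among all genes. At an unadjusted p under 0.05 in edgeR's test, 0 members and 451 genes stood out after PBS, 1 member and 491 genes after LPS, 1 member and 294 genes in the average, and 0 members and 695 genes in the interaction. DESeq2 called 0 members in each, and 2, 2, 2 and 1 genes. With the 5 libraries of negative GC trend left out, edgeR again called 0 members in each of the 4. Of all genes it then called 0.00634% after PBS, 0.837% (132 genes) after LPS, 0.019% in the average and 0.00634% in the interaction.

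The median log2 difference of the 46 members, experienced minus naive, was 0.00 after PBS and 0.07 after LPS. For all genes it was 0.00 and -0.02. The members' median after LPS moved with single libraries, to 0.01 without naive LPS replicate 1, 0.16 and 0.13 without naive LPS replicates 2 and 3, 0.05 without experienced LPS replicate 2 and 0.20 without experienced LPS replicate 4. It was 0.28 without the 3 least typical libraries (experienced LPS replicate 4, naive LPS replicate 2 and experienced PBS replicate 4). Leaving out the 5 libraries of negative GC trend gave medians of -0.10 after PBS and 0.15 after LPS. Cap genes ranged from -0.12 to 0.40 after PBS and from -0.11 to 0.28 after LPS. Psmc5 differed by 0.07 after PBS, with a 95% interval of -0.27 to 0.42, and by 0.15 after LPS, with an interval of -0.20 to 0.49. Psmd14 differed by 0.13 (-0.26 to 0.51) and 0.12 (-0.27 to 0.50), and Psma3 by 0.13 (-0.21 to 0.46) and -0.01 (-0.35 to 0.33). These intervals show how large a difference the 4 libraries a group leave possible, and a p above the threshold does not show equal levels.

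Of single members, Psma8 had the lowest unadjusted p. Its values after LPS, given above, were 2.40 to 5.76 CPM in naive and 3.16 to 14.7 CPM in experienced libraries, which overlap. The difference was 1.20 (SE 0.40) after LPS and 0.86 (SE 0.28) averaged over both treatments, and neither was called. Leaving out the 5 libraries gave 1.10 (SE 0.43) and 0.78 (SE 0.28), not called. After PBS all 4 experienced libraries lay below all 4 naive libraries for 5 of 46 members, against 2.22% of all tested genes, and above them for 0. The 5 are Psma7, Psmb4, Psmb5, Psme2 and Psmg4, named after their values were seen. Experienced PBS replicates 3 and 4, both of negative GC trend, held the lowest values of Psmb4, Psme2 and Psmg4 in that group, and their part in the count was not tested. None of the 5 was called, with log2 differences of -0.24, -0.42, -0.36, -0.41 and -0.58. With the 5 libraries left out, which leaves experienced PBS replicates 1 and 2, they were -0.23, -0.24, -0.25, -0.23 and -0.29.

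In the interaction the widest estimates belonged to members of high spread between libraries. Psme2b stood at 1.09 (SE 0.75), Psmg4 at 0.74 (SE 0.76), Psmb4 at 0.72 (SE 0.53), Psmb5 at 0.68 (SE 0.46) and Psma8 at 0.68 (SE 0.55), while Psmc6, Psme3 and Psme1 were at -0.51 (SE 0.43), -0.47 (SE 0.40) and -0.33 (SE 0.31). For the activators called in 1 background alone, the interval of the interaction was -0.98 to 0.32 for Psme1, -0.11 to 1.15 for Psme2, -1.32 to 0.39 for Psme3 and -0.62 to 0.19 for Psme4. Each includes 0. The median interaction of the 46 members was 0.07 with all libraries, 0.29 without the 5 and 0.34 without the 3 least typical, and ran from 0.02 without naive LPS replicate 1 to 0.19 without naive LPS replicate 2 or experienced LPS replicate 4. Leaving out the 5 also changed the estimates of Psme2b to 0.13 (SE 0.39), Psmg4 to 0.21 (SE 0.20), Psmb4 to 0.26 (SE 0.15) and Psmb5 to 0.43 (SE 0.13). Those of Psmc6, Psme3 and Psme1 became 0.55, 0.16 and -0.06, so Psmc6 and Psme3 changed sign.

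Genes that work with the proteasome but are not members were read from the same fit, from lists chosen with earlier results of these data known. The interferon-inducible catalytic subunits Psmb8, Psmb9 and Psmb10 gave 0 calls of 3 in either background. Their log2 differences were 0.11, -0.08 and -0.04 in naive cells and 0.56, 0.42 and 0.71 in experienced cells, with edgeR adjusted p from 0.14 to 0.27 in the latter. In TPM, Psmb8 read 228, 221, 237 and 189 in naive PBS, 215, 206, 269 and 181 in naive LPS, 241, 238, 185 and 130.4 in experienced PBS and 293, 292, 267 and 153 in experienced LPS libraries. The naive groups interleaved, and in experienced cells LPS replicate 4 was the only LPS library within the PBS range of Psmb8. All 3 genes were called higher in both backgrounds when the 5 libraries of negative GC trend were left out, at 0.37, 0.26 and 0.35 in naive and 0.52, 0.29 and 0.69 in experienced cells.

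Of 12 tested partners of the proteasome (receptors, deubiquitinases, assembly and import factors), 4 were called higher in naive and 1 in experienced cells, with 0 lower. These were the deubiquitinases Usp14 (0.63 and 0.58, called in both) and Uchl5 (1.18 in naive cells), the ubiquitin receptor Adrm1 (0.52) and the thioredoxin-like Txnl1 (0.62). Leaving out the 5 libraries gave 6 and 8 of 12 higher. Of 9 regulators of proteasome genes, Nfe2l2, an activator of the antioxidant response, was called higher in naive cells at 0.65 (SE 0.21, edgeR adjusted p = 0.033), with an estimate of 0.05 in experienced cells. Nfe2l1, which is known to raise proteasome genes when the proteasome is inhibited, had 0.01 and 0.12, not called. Among 15 tested genes of ubiquitin supply and delivery, Rad23b was called higher (0.63) and Ubqln2 lower (-0.46) in naive cells and 0 in experienced cells. Without those libraries 3 of the 15 were called higher and 1 lower in naive cells and 6 higher in experienced cells, and of the 9 regulators 1 was higher and 2 lower in naive and 2 lower in experienced cells, with Nfe2l2 at 0.51 and 0.33.

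Markers of other cells moved with LPS beside the proteasome genes. All 5 basophil and mast cell markers were called higher in naive cells and 3 of 5 in experienced cells. Their summed level was 31.1 to 61.6 TPM in naive PBS and 184 to 401 TPM in naive LPS libraries, and 34.5 to 113 TPM after PBS and 146 to 278 TPM after LPS in experienced ones. Of 6 tested erythroid markers 2 were called higher in naive cells and 0 in experienced cells, with summed levels of 5.98 to 22.9 TPM after PBS and 34.9 to 101 TPM after LPS in naive and 10.2 to 142 TPM after PBS and 24.9 to 83.9 TPM after LPS in experienced libraries. Estimates were above 0 for 3 of these 6 in naive and 2 of 6 in experienced cells, with medians of -0.06 and -0.74. Of 4 megakaryocyte markers, Itga2b was called higher in both, and the list summed to 113 to 231 TPM after PBS and 283 to 298 TPM after LPS in naive and 117 to 181 TPM after PBS and 254 to 438 TPM after LPS in experienced cells. In naive cells Itga2b alone of the 4 had an estimate above 0, and the list's median log2 difference was -0.64. In experienced cells all 4 were above 0, with a median of 0.69. With the 5 libraries left out, 5 and 4 of 5 basophil and mast cell markers, 2 and 2 of 6 erythroid and 1 and 2 of 4 megakaryocyte markers were called higher in naive and experienced cells.

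With all 16 libraries, lists of other mature cells gave calls in the lower direction. For neutrophil markers these were 2 of 5 tested in naive and 1 of 5 in experienced cells, and for monocyte and macrophage, B and plasma, T and NK, and stromal and endothelial markers 1 gene per list in each background. Without the 5 libraries of negative GC trend calls went both ways. In naive cells 1 stromal and endothelial marker was called higher, and in experienced cells 1 neutrophil and 1 T and NK marker. Called lower in naive cells were 2 monocyte and macrophage, 2 B and plasma and 1 marker of each other list. In experienced cells 2 stromal and endothelial markers and 1 of each other list were lower. Summed monocyte and macrophage markers were 150.3 to 158 TPM after PBS and 53.0 to 59.5 TPM after LPS in naive and 99.5 to 167 TPM after PBS and 56.5 to 73.9 TPM after LPS in experienced libraries. Of the sort's own markers, Ly6a, which encodes Sca1 and responds to interferon, was called higher at 1.72 and 1.87, and Cd34 lower at -1.18 and -0.90, in naive and experienced cells. Ptprc was called lower in experienced cells at -0.52. These markers were called without the 5 libraries in both backgrounds, Ly6a at 2.02 and 1.52, Cd34 at -1.36 and -0.93 and Ptprc at -0.43 and -0.65. Kit was not called with all 16 libraries. Its mean was 735 CPM after PBS and 547 CPM after LPS in naive cells, and 652 and 482 CPM in experienced cells. Without the 5 libraries Kit was called lower in both backgrounds, so 3 of the 4 sort markers were lower and 1 higher. No marker was at 0 in all libraries. The part of these cells in the rise of the proteasome genes was not tested.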

How the data were processed

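RNA-seq of 16 libraries, 4 in each of 4 groups, was read from tables with 1 column per library. Per the submitters' processing notes, processing used Trim Galore 0.6.7, STAR 2.7.10a and RSEM 1.3.1, with the mouse build GRCm38. Per the file headers, the deposited tables hold RSEM's expected counts per gene and, separately, TPM, which RSEM scales to gene length and library. The labels list 2 technical replicates a sample, without saying how they were merged before deposit, and neither the release of the annotation nor strandedness is stated. The protocol names a droplet library kit, while the tables hold 1 column per bulk sample.

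Gene symbols came from GENCODE mouse release M21, which matched 45143 of 45706 identifiers. The expected counts were rounded to whole numbers and fitted in edgeR 4.0.16 (R 4.3.3) with filterByExpr, TMM factors and the quasi-likelihood test over all 4 groups, with 12 residual degrees of freedom and a common biological coefficient of variation of 30.6%. Benjamini-Hochberg adjustment ran over 15186 tested genes, which held 99.9% of the counts. The fit was checked on simulated counts. CPM serves to compare libraries and TPM to compare genes, and intervals are at the 95% level. The GC trend of a library is the rank correlation, over 11113 genes that are not members, between a gene's log2(CPM + 0.5) minus its mean over all libraries and its transcript GC content, for genes of mean log2 CPM of at least 2. GC content was missing for 39 genes and present for all 47 members.

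The members and gene lists were chosen with earlier results of these data known. Values by library were given for the up to 10 called members of lowest p in each comparison, for the catalytic subunits, activators, inhibitor and core chaperones, and for Psmd14, Psma8 and Psmb11. Genes named by a single value outside that rule complete their role group. Alternatives were other normalization factors, no or a stricter filter (mean CPM of at least 5), DESeq2 1.42.0, limma 3.58.1 on log2(TPM + 1) and log2(TPM + 0.1) for genes of mean TPM of at least 1, a replicate block, only the groups compared, pseudogene counts added to the parent gene, the 3 least typical libraries left out, and each library left out. Added after seeing the data were fits without the 5 libraries of negative GC trend, with GC offsets over 20 bins, and with Psme2 and Psme2b summed.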

Additional observations from a re-analysis of the deposited data

Results flagged for a closer look

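The check for a library that stands apart was run for the 25 members given by library and for summed CPM by role, not for the other members. In 22 of 122 groups of 4 libraries, 1 library stood apart by Dixon's ratio, the gap to its nearest neighbour over the whole range. Chance gives this in about 1 in 20 groups, and members share libraries, so the groups are not independent. Experienced LPS replicate 4, a library of negative GC trend and the highest mitochondrial share, accounted for 15 of them.

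In that library several members were low against the other 3 of its group. Psmb5 stood at 26.1 CPM against 95.4 to 99.2, Psmb7 at 61.5 against 102 to 109, and Psme2 at 49.8 against 100.5 to 103. Of the cap scaffolds, Psmd1 stood at 149 CPM against 198 to 207 and Psmd2 at 183 against 266 to 269.6. The chaperones Psmg3 and Psmg4 stood at 10.2 and 1.92 CPM against 30.5 to 31.3 and 24.1 to 26.6.

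Other members were high in it. Psme1 stood at 455 CPM against 265 to 277, Psme3 at 524 against 280.0 to 297, and Psmd14 at 126 against 107 to 109. The sums followed the same division. The core sum was 1259 CPM against 1823 to 1905, the cap sum 1828 against 2270.3 to 2319, the sum of the core chaperones 79.6 against 133 to 139.9 and the sum of all members 4459 against 5184 to 5306, while the activator sum was 1141 against 762 to 787.

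Elsewhere, naive LPS replicate 2 had Psmg1 at 81.3 CPM against 31.1 to 36.0, and naive LPS replicate 3 had Psmb7 at 94.5 against 69.6 to 73.0. Naive PBS replicate 4 had Psmb6 at 100.5 CPM against 77.8 to 81.2. Experienced PBS replicate 4 had Psmf1 at 60.3 CPM against 43.4 to 45.8, and experienced PBS replicate 3 had a core chaperone sum of 83.2 against 75.7 to 76.7. Psmb11 was above 0 in naive LPS replicate 4, at 0.175 CPM, and in experienced LPS replicate 1, at 0.0508 CPM, and at 0 in the other 14 libraries.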

How the results depend on the processing

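The counts of called members depended on the fit. For LPS in naive cells, where edgeR with all libraries called 20, limma on log2(TPM + 1) called 1 and on log2(TPM + 0.1) 1, leaving out the 5 libraries of negative GC trend gave 43, and leaving out 1 library in turn gave 6 to 29. For LPS in experienced cells, where it called 19, DESeq2 called 29, limma on log2(TPM + 1) 2 and on log2(TPM + 0.1) 2, leaving out the 3 least typical libraries (experienced LPS replicate 4, naive LPS replicate 2 and experienced PBS replicate 4) gave 37, leaving out the 5 gave 40, and leaving out 1 library in turn gave 7 to 34. Other settings stayed within 1.5 times the count, among them upper-quartile factors and no filter in naive cells (14 and 14) and GC offsets (25 in naive and 28 in experienced cells). The cause of these differences was not tested. Shares of all genes called are not given for these settings, so the counts do not show a change particular to the members. On the TPM scale the median of all genes shifted to -0.12 and -0.13 in experienced cells with pseudocounts of 1 and 0.1, and the member medians were 0.42 and 0.42. Over the 39 called values of single members, 912 refits kept the call, 258 kept the direction but lost the call, and 0 reversed the direction. The replicate numbers are not stated to pair libraries, and the correlations of deviations between libraries of the same number ran from -0.21 to 0.32. With a replicate block the counts were 14 in naive and 18 in experienced cells. The comparisons of experienced with naive cells and the interaction gave 0 called members under every setting run. With 4 libraries a group and a biological coefficient of variation of 30.6%, small differences are not detectable, and Psmb11, at 0 to 0.175 CPM, was not testable.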
